A study of Populus tremula x Populus alba with 72 samples.

Results

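LHY1 (Potri.002G180800) and LHY2 (Potri.014G106800) are the paired poplar copies of LATE ELONGATED HYPOCOTYL, a core gene of the plant circadian clock. Both were taken from the deposited table by identifier, as 2 of 34699 listed genes, and both were among the 27780 genes tested. They were followed through all 72 leaf RNA-seq libraries of 1 genotype, clone INRAE 717-1B4, a hybrid poplar (Populus tremula x alba). In Arabidopsis, LHY encodes a MYB-type transcription factor whose transcript peaks around dawn and which represses genes expressed in the evening, whose products in turn act back on LHY. In poplar, LHY1 and LHY2 are duplicates of each other, and lowering them in hybrid aspen is known to alter clock period and the seasonal timing of growth and dormancy.

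Young trees were kept in chambers with charcoal-filtered air (the control) or with the same air carrying 80 ppb or 100 ppb ozone, which was supplied for 13 h of the day. Leaves at 2 positions, labelled expanded and growing, were sampled on days 2, 8 and 13. These 2 positions, 3 airs and 3 days made 18 groups of 4 libraries each. All groups shared this single clone. The labels used here give no hour of sampling, no tree or chamber for a replicate number and no number of chambers for an air, so air and chamber cannot be told apart. Transcripts of clock genes vary with the time of day, and whether the hour of sampling differed between days, airs, positions or replicates was not tested, which holds for every change given here. p-values measure the spread between libraries labelled as replicates, which are not said to come from separate trees. Sequencing depth, counted as the recovered reads of all genes, was 23.2 M in the shallowest library, 54.3 M in the deepest and 39.4 M at the median. Values are the authors' normalised read counts, which correct for library size but not for gene length, so the levels of LHY1 and LHY2 were not compared with each other.

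Both genes were abundantly expressed. LHY1 averaged 5350 normalised read counts, higher than 96.5% of the tested genes on this scale without length, and LHY2 averaged 8031, higher than 98%. The library with the fewest LHY1 reads held 1995 of them and the one with the fewest LHY2 reads held 2626, so that counting error was at most 2.24% and 1.95%. The spread between replicates was far larger. The residual SD was 0.394 on the log2 scale for LHY1 and 0.463 for LHY2, against a median of 0.274 over all tested genes. Over all libraries LHY1 ran from 1640 to 10374 and LHY2 from 2158 to 17660.3 normalised read counts. The 18 groups accounted for 51.6% of the variance of LHY1 and 47.1% of that of LHY2, against a median of 77.1% over all tested genes. Only 12.4% of the tested genes had a lower share than LHY1, and 8.76% a lower share than LHY2.

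**Figure D1:**
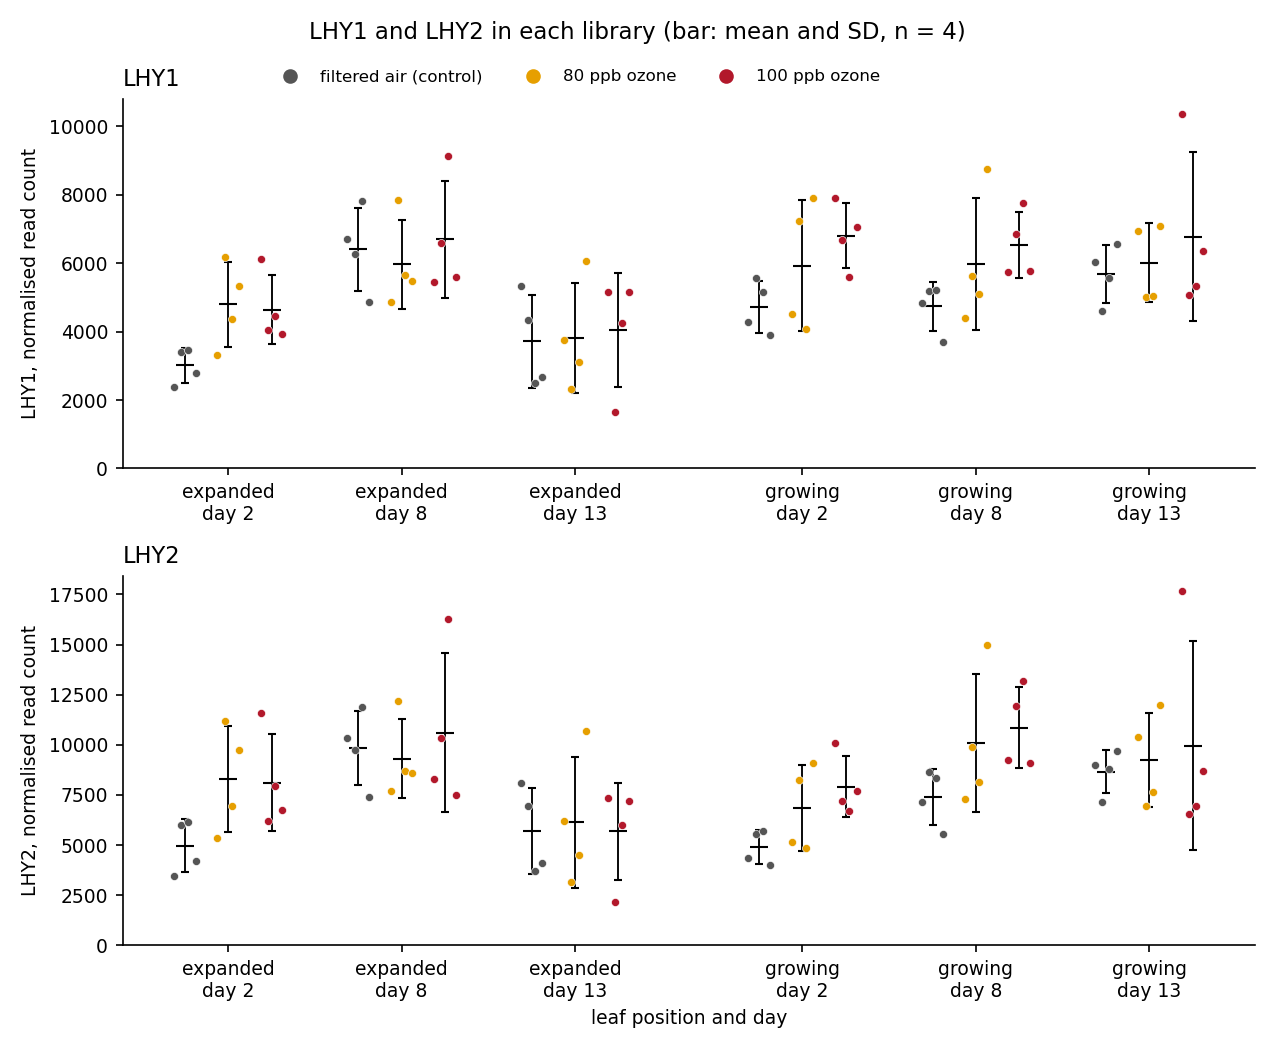
Normalised read counts of LHY1 (top) and LHY2 (bottom) in each library, by leaf position and day, with the air in colour. Horizontal bars are group means and whiskers SD (n = 4). Expanded control leaves of day 2 lie at the bottom for LHY1, with a mean of 3009, and the 4 libraries of 1 group often span more than the distance between neighbouring groups.

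In filtered air, both genes stood higher in expanded leaves on day 8 than on day 2. LHY1 in the expanded control leaves of day 2 read 2373, 3407, 3473 and 2784 normalised read counts in replicates 1 to 4, and on day 8 it read 6699, 6262, 7810 and 4861. LHY2 read 3479.7, 5984, 6159.7 and 4204 on day 2 and 10318, 9757, 11869.6 and 7389.8 on day 8. Every day 8 library lay above every day 2 library for both genes. LHY1 rose by 1.09 ± 0.27 (SE) on the log2 scale (a fold with a 95% interval of 1.46 to 3.09, adjusted p = 0.0012 by limma with Benjamini-Hochberg adjustment, n = 4 per group) and LHY2 by 1.01 ± 0.32 (1.29 to 3.13, adjusted p = 0.00983). Of all tested genes, 37% were called in this comparison, at an adjusted p under 0.05. The LHY2 call was lost without replicate 1 of the day 2 controls, where the adjusted p was 0.0525. These are bulk samples, in which a change in the share of a cell type and a change in RNA per cell cannot be told apart.

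On day 13 the expanded control leaves held 5329.9, 4354, 2506 and 2684 normalised read counts of LHY1 and 8095, 6936, 3695 and 4115 of LHY2. Replicates 1 and 2 were high and replicates 3 and 4 low for both genes, and replicate 1 reached into the range of day 8. From day 8 to day 13 the log2 change was -0.84 ± 0.27 for LHY1 (adjusted p = 0.098, limma) and -0.84 ± 0.32 for LHY2 (adjusted p = 0.182), in a comparison where 1.9% of genes were called. Neither passed the threshold with all libraries. Without day 13 replicate 1 both passed it, at -1.03 (adjusted p = 0.0167) and -1.04 (adjusted p = 0.0474). Against day 2, day 13 differed by 0.25 ± 0.27 for LHY1 and 0.17 ± 0.32 for LHY2, with limma adjusted p of 0.456 and 0.685, while 50.9% of genes were called.

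In growing control leaves LHY2 was higher on day 13 than on day 2, and no change of LHY1 passed the test. Whether the change over these days differed between the genes was not tested. LHY1 read 4295, 5558, 5165 and 3894 normalised read counts on day 2, 4844, 5184, 5229 and 3691 on day 8, and 6023, 4596, 5561 and 6568 on day 13. The day 2 and day 8 values covered nearly the same range, and the day 13 values overlapped both. LHY2 read 4364, 5568, 5710.1 and 4007 on day 2, 7125, 8622, 8323 and 5541 on day 8, and 9003, 7152, 8778 and 9711 on day 13. All day 13 libraries of LHY2 were above all day 2 libraries, with day 8 between them and overlapping both. LHY2 rose 1.77-fold from day 2 to day 13 (log2 change 0.83 ± 0.32, adjusted p = 0.0184 by limma), in a comparison that called 70.1% of genes. Without day 2 replicate 4 this call was lost (adjusted p = 0.0546). LHY1 changed by 0.27 ± 0.27 over the same days and did not pass the test (adjusted p = 0.378). From day 2 to day 8 the changes were 0.00 ± 0.27 for LHY1 (adjusted p = 0.998) and 0.59 ± 0.32 for LHY2 (adjusted p = 0.116), with 51.9% of genes called. From day 8 to day 13 they were 0.27 ± 0.27 and 0.24 ± 0.32, with limma adjusted p of 0.446 and 0.569 and 43.5% of genes called.

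Growing and expanded control leaves were then compared on each day. On day 2, LHY1 averaged 4728 ± 767 normalised read counts (SD, n = 4) in growing leaves and 3009 ± 526 in expanded leaves, with no overlap between the libraries. LHY1 was 1.57-fold higher in growing leaves (log2 difference 0.65 ± 0.27, adjusted p = 0.0314 by limma), on a day when 63% of all tested genes were called between the positions. This call was lost without expanded replicate 1 (adjusted p = 0.101) or 4 (0.0638) and without growing replicate 2 (0.0894) or 3 (0.0695). LHY2 averaged 4912 ± 854 in growing and 4957 ± 1320 in expanded leaves on that day. Its libraries overlapped almost fully and the log2 difference was 0.01 ± 0.32 (95% interval -0.62 to 0.65, limma adjusted p = 0.98).

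On day 8 growing leaves had the smaller means of both genes, without passing the test. The log2 difference, growing minus expanded, was -0.43 ± 0.27 for LHY1 (limma adjusted p = 0.177) and -0.41 ± 0.32 for LHY2 (adjusted p = 0.278), beside 54.4% of genes called. On day 13 growing leaves had the larger means, again without a call. The log2 difference was 0.67 for both genes, with SE 0.27 for LHY1 and 0.32 for LHY2 and limma adjusted p of 0.059 and 0.114, while 25% of genes were called. The difference between positions was itself compared between days in the same fit, a contrast chosen after the data were seen. For LHY1 it changed by -1.08 ± 0.38 from day 2 to day 8 (adjusted p = 0.0216 by limma, 36.6% of genes called) and by 1.10 ± 0.38 from day 8 to day 13 (adjusted p = 0.0309, 22.1% called). For LHY2 these changes were -0.42 ± 0.45 (adjusted p = 0.489) and 1.08 ± 0.45 (adjusted p = 0.0751). Both changes of a gene use the same day 8 libraries with opposite sign, so they are not separate results. The LHY1 calls each depended on several single libraries. The first was lost without expanded replicate 1 of day 2 (adjusted p = 0.0517), expanded replicate 3 of day 8 (0.05, not under the threshold) or growing replicate 4 of day 8 (0.0523). The second was lost on leaving out any of 6 of its 16 libraries, namely expanded replicate 3 and growing replicate 4 of day 8 (0.0768 for each), expanded replicates 3 (0.0894) and 4 (0.0754) of day 13, and growing replicates 1 (0.0521) and 4 (0.0644) of day 13.

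Ozone at 100 ppb came with higher mean levels of both clock genes on day 2, in growing and in expanded leaves, but no single comparison passed the test across all genes. In expanded leaves at 100 ppb on day 2, LHY1 read 6118, 4060.05, 4445 and 3924 normalised read counts and LHY2 read 11592, 6181, 7945 and 6732. All 4 libraries of each gene lay above the 4 controls given above. The log2 change was 0.62 ± 0.27 for LHY1 (1.53-fold, 95% interval 1.05 to 2.23, adjusted p = 0.141 by limma) and 0.71 ± 0.32 for LHY2 (1.63-fold, 1.05 to 2.54, adjusted p = 0.152). On this day 8.34% of all tested genes were called in expanded leaves. An unadjusted limma p as small as that of LHY1 was found for 18.7% of them, and as small as that of LHY2 for 19.7%. The share of genes whose libraries did not overlap was not computed for this or any other comparison.

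In growing leaves at 100 ppb on day 2, LHY1 read 7895, 6689.8, 5588 and 7071 and LHY2 read 10097, 7186, 6679.7 and 7692 normalised read counts. Again no library overlapped with the controls. The changes were 0.53 ± 0.27 for LHY1 (1.44-fold, 0.99 to 2.10, adjusted p = 0.595 by limma) and 0.69 ± 0.32 for LHY2 (1.61-fold, 1.04 to 2.50, adjusted p = 0.534), beside 0.054% of genes called. On day 8 the growing leaves at 100 ppb read 5755, 6867, 7768 and 5780.1 for LHY1 and 9246, 11915, 13207 and 9088 for LHY2, once more above all 4 controls. These changes were 0.47 ± 0.27 and 0.56 ± 0.32, with limma adjusted p of 0.922 and 0.921 and 0.0396% of genes called.

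The other 100 ppb comparisons gave small mean changes with overlapping libraries. Expanded leaves of day 8 read 5463, 6589.5, 9149 and 5591 for LHY1 and 8318, 10363, 16276 and 7499 for LHY2, against the controls of that day given above. Their changes were 0.05 ± 0.27 and 0.06 ± 0.32 (limma adjusted p = 0.916 and 0.914, 19.7% of genes called). Expanded leaves of day 13 held the group most spread out on the log2 scale, with LHY1 at 5155, 1639.7, 4255 and 5158 and LHY2 at 7337, 2158, 6012 and 7223. Replicate 2 was the lowest of all 72 libraries for both genes. The changes were 0.06 ± 0.27 for LHY1 and -0.08 ± 0.32 for LHY2 (limma adjusted p = 0.882 and 0.874), although 41.1% of all tested genes were called in the same leaves. Without replicate 2 the changes were 0.45 (limma adjusted p = 0.171) and 0.34 (adjusted p = 0.422). Growing leaves of day 13 contained the highest library of the series for both genes, replicate 1, at 10374 for LHY1 and 17660.3 for LHY2. The other replicates read 5062, 5329 and 6362 for LHY1 and 6548, 6934 and 8678 for LHY2. Here the changes were 0.20 ± 0.27 and 0.09 ± 0.32 (limma adjusted p = 0.626 and 0.879), beside 28% of genes called.

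Counted over the 6 comparisons at 100 ppb, LHY1 was called in 0 and had an unadjusted p under 0.05 in 1, and LHY2 was called in 0 with an unadjusted p under 0.05 in 2. edgeR and DESeq2 on the recovered reads also called neither gene in any of the 6. The estimates for LHY1 were positive in 6 of 6 and those for LHY2 in 5 of 6. The libraries of the ozone and control groups did not overlap in 3 of 6 for each gene. How often other tested genes reached such counts was not computed, so these counts are a description only. The intervals remained wide, with upper 95% bounds of up to 1.16 on the log2 scale for LHY1 and 1.34 for LHY2.

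**Figure D2:**
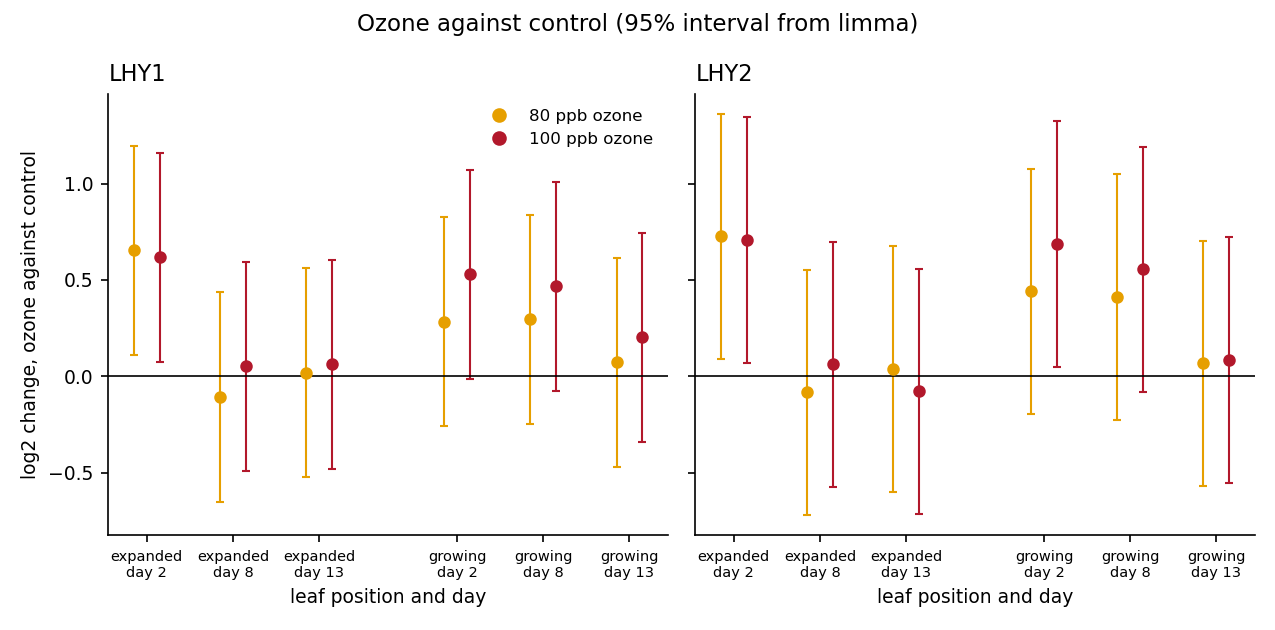
Log2 change of LHY1 (left) and LHY2 (right) at 80 and 100 ppb ozone against filtered air, by leaf position and day. Points are limma estimates and bars their 95% intervals (n = 4 per group, unadjusted). Both ozone levels share the controls of each position and day. The estimates on day 2 in expanded leaves lie between 0.62 and 0.73 at both ozone levels, while those in expanded leaves on days 8 and 13 lie close to 0.

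The same controls, the lowest group of each gene by mean log2 level, served both ozone levels in expanded leaves on day 2. At 80 ppb the estimates there were as high as at 100 ppb. LHY1 read 3318, 6195, 4363 and 5343 and LHY2 read 5329.7, 11195, 6951 and 9759 normalised read counts. Replicate 1 fell among the controls for both genes, and the other replicates lay above them. The changes were 0.65 ± 0.27 and 0.73 ± 0.32, each with an adjusted p of 1 by limma, in a comparison that called 0.0108% of genes. In growing leaves the 80 ppb changes were 0.28 ± 0.27 and 0.44 ± 0.32 on day 2 and 0.30 ± 0.27 and 0.41 ± 0.32 on day 8, where 0% of genes were called on either day. On day 13 they were 0.07 for each gene, with 0.0144% called. In expanded leaves they were -0.11 and -0.08 on day 8 (0.018% called) and 0.02 and 0.04 on day 13 (1.75% called). Neither gene was called in any of the 6 comparisons at 80 ppb by limma, edgeR or DESeq2, and each had an unadjusted limma p under 0.05 in 1. The ozone and control libraries overlapped in all 6.

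The step from 80 to 100 ppb was also tested directly and neither gene was called. Its log2 estimates ran from -0.04 to 0.25 for LHY1 and from -0.12 to 0.25 for LHY2, while the share of all genes called was 6.84%, 8.15% and 29.2% in expanded leaves on days 2, 8 and 13. It was 0% for growing leaves on each of the first 2 days and 14.9% on the last. Whether the 100 ppb change differed between growing and expanded leaves was tested on each day, and neither gene was called. The difference, growing minus expanded, was -0.09 ± 0.38, 0.42 ± 0.38 and 0.14 ± 0.38 for LHY1 and -0.02, 0.49 and 0.16 (each ± 0.45) for LHY2 on days 2, 8 and 13, with limma adjusted p of 0.621 or more and 95% intervals that reached from -0.92 to 1.39. Of all genes, 0.392%, 0.0684% and 3.51% were called in these comparisons. The 100 ppb change on day 13 minus that on day 2 was -0.55 ± 0.38 for LHY1 and -0.79 ± 0.45 for LHY2 in expanded leaves, and -0.33 ± 0.38 and -0.60 ± 0.45 in growing leaves, none of which passed the test (limma adjusted p of 0.249 to 0.623). The background here was 13.2% of genes called in expanded and 13.5% in growing leaves.

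Because most estimates were positive, a mean change over both positions and the 3 days was added after the data were seen. It sets 24 ozone libraries against 24 controls. Since the same libraries led to this choice, its p-values are a description and no independent test. At 100 ppb LHY1 was higher by 0.32 ± 0.11 on the log2 scale (1.25-fold, 95% interval 1.07 to 1.46, adjusted p = 0.0127 by limma) and LHY2 by 0.34 ± 0.13 (1.26-fold, 1.05 to 1.51, adjusted p = 0.0267). In the same contrast 49.9% of all genes were called, so a call there did not set these genes apart. The LHY2 call was lost without replicate 1 of the growing leaves at 100 ppb on day 13, the highest library of the series (adjusted p = 0.0533). At 80 ppb the mean change was 0.20 ± 0.11 for LHY1 (adjusted p = 0.446, limma) and 0.27 ± 0.13 for LHY2 (adjusted p = 0.368), and 1.25% of genes were called.

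Placed in order of their mean log2 level, the groups formed a continuous series for each gene. For LHY1 it began with the expanded control leaves of day 2 (3009 ± 526 normalised read counts), followed by the 3 expanded groups of day 13 (3718 ± 1360 in control air, 3815 ± 1610 at 80 ppb and 4052 ± 1660 at 100 ppb). The middle of the order held the expanded leaves under ozone on day 2 and the growing controls. It ended with 4 of the 100 ppb groups, growing leaves of day 8 (6543 ± 968) and 13 (6782 ± 2460), expanded leaves of day 8 (6698 ± 1710.0) and growing leaves of day 2 (6811 ± 958). The extremes were 2.27-fold apart. Every group overlapped with its neighbour in the order, and only the step from growing controls of day 8 to those of day 13 was larger than the SD within these groups (0.265 against 0.236 and 0.22 on the log2 scale).

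For LHY2 the order began with the controls of day 2, expanded (4957 ± 1320) and growing (4912 ± 854), and then the 3 expanded groups of day 13. Its upper end held the 6 groups with expanded leaves of day 8 in all 3 airs, growing leaves of day 8 under ozone and growing leaves of day 13 at 100 ppb, the highest being growing leaves of day 8 at 100 ppb (10864 ± 2030). The extremes were 2.23-fold apart, all neighbours overlapped and no step exceeded the SD within its groups. Growing leaves of day 2 at 100 ppb, the highest group for LHY1, stood in the middle of the LHY2 order at 7914 ± 1510 normalised read counts.

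The copies were set against each other directly through the ratio of LHY1 to LHY2 within each library. A ratio taken within a library cancels its scaling, and since gene length is the same in every library only changes of the ratio are read here. In the growing control leaves of day 2 the ratio was 0.984, 0.998, 0.905 and 0.972, and in the expanded control leaves of that day it was 0.682, 0.569, 0.564 and 0.662. The groups were widely apart, and the log2 difference was 0.64 ± 0.08. The exact two-sided permutation test gave p = 0.0286, the smallest that 4 against 4 libraries allow, which became 0.143 after Benjamini-Hochberg adjustment over the 15 planned ratio tests. None of the 15 passed after adjustment and 3 reached the smallest p. With so few tests at the smallest p, even fully separate groups could not pass this adjustment. A missing call here is therefore no sign that a difference is absent. On days 8 and 13 the difference between the control positions was -0.02 ± 0.04 (exact p = 0.657) and 0.00 ± 0.03 (exact p = 0.971).

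The same ratio was high in growing leaves of day 2 in all airs, averaging 0.965 ± 0.042 in filtered air, 0.864 ± 0.017 at 80 ppb and 0.867 ± 0.071 at 100 ppb (SD, n = 4). All 12 of these libraries, at 0.782 to 0.998, lay above all of the other 60, of which the highest was 0.773. In the other groups the mean ratio ran from 0.582 in expanded leaves at 100 ppb on day 2 to 0.721 in expanded leaves at 100 ppb on day 13. Averaged over the 3 airs, growing minus expanded, the log2 difference on day 2 was 0.59, which is 1.51-fold and ran from 0.56 to 0.64 between airs. It was -0.07 on day 8 and 0.00 on day 13. These averages were added after the data were seen and are given as a description. Whether reads of such similar copies were assigned to the wrong member was not tested.

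Ozone came with small shifts of the ratio that did not pass adjustment, which so few tests at the smallest p could not do. In expanded leaves of day 13 it was 0.703, 0.760, 0.708 and 0.714 at 100 ppb, above 0.658, 0.628, 0.678 and 0.652 in the controls (log2 difference 0.14 ± 0.03, exact p = 0.0286, adjusted 0.143). In growing leaves of day 2 it was 0.878, 0.874, 0.839 and 0.866 at 80 ppb, below all controls (-0.16 ± 0.03, exact p = 0.0286, adjusted 0.143). At 100 ppb in the same leaves the difference was also -0.16, with overlapping libraries (± 0.07, exact p = 0.0857, adjusted 0.257). The remaining ozone differences lay between -0.12 and 0.12.

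**Figure D3:**
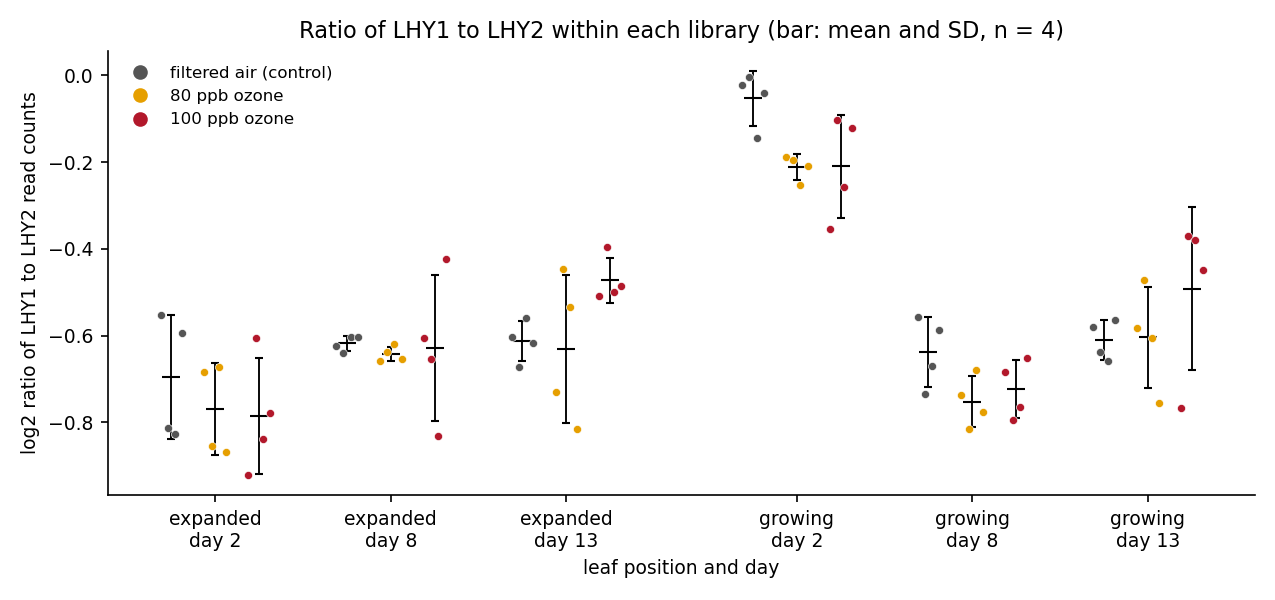
Log2 ratio of LHY1 to LHY2 in each library, by leaf position and day, with the air in colour. Bars are group means and whiskers SD (n = 4). The growing leaves of day 2 stand above every other library, at -0.35 or higher, while the remaining groups have means between -0.79 and -0.47.

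Between replicates of the same group the copies moved closely together. The deviations of LHY1 and LHY2 from their group means correlated with a Pearson r of 0.983 and a Spearman rho of 0.979 over the 72 libraries, and r was 0.979 without the 2 libraries farthest from the median. Both deviated in the same direction in 66 of 72 libraries. The values come from the same libraries and share their scaling. Whether wrongly assigned reads of such similar copies added to this correlation was not tested. Over the 18 group means r was 0.851 and rho 0.756. Within expanded leaves alone r was 0.976 over 9 group means, and within growing leaves alone it was 0.686, falling to 0.253 without the 2 groups farthest from the median. Correlation with the total reads of the library was low, at r = 0.21 for LHY1 and 0.233 for LHY2.

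Expanded and growing leaves that carried the same replicate number, air and day also deviated together. For LHY1 r was 0.524 and rho 0.55 over 36 pairs of libraries, and for LHY2 r was 0.619 and rho 0.618. Without the 2 pairs farthest from the median r was 0.476 and 0.562. In 28 of 36 pairs both leaves deviated the same way, for LHY1 and for LHY2. The deviations of the copies correlate closely, so these counts are not separate observations. The check across all genes, given further below, asked for an r over 0.1 in every pair. Expanded and growing leaves met it in 1 set, at 100 ppb on day 8. Missing this cut-off does not show that the numbers are unrelated. What a shared number stands for is not labelled and was not tested. In controls of day 2, LHY1 deviated by -0.33, 0.20, 0.22 and -0.10 on the log2 scale in expanded leaves of replicates 1 to 4 and by -0.12, 0.25, 0.14 and -0.27 in growing leaves. At 100 ppb on day 13, LHY2 deviated by 0.52, -1.25, 0.23 and 0.50 in expanded leaves and by 0.95, -0.48, -0.40 and -0.07 in growing leaves. The lowest and the highest libraries of the series thus came from replicates 2 and 1 of this air and day, and leaving day 13 out gave r = 0.618 for LHY1 and 0.713 for LHY2 over 24 pairs. Leaving out the 100 ppb groups gave r = 0.458 and 0.584, also over 24 pairs.

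**Figure D4:**
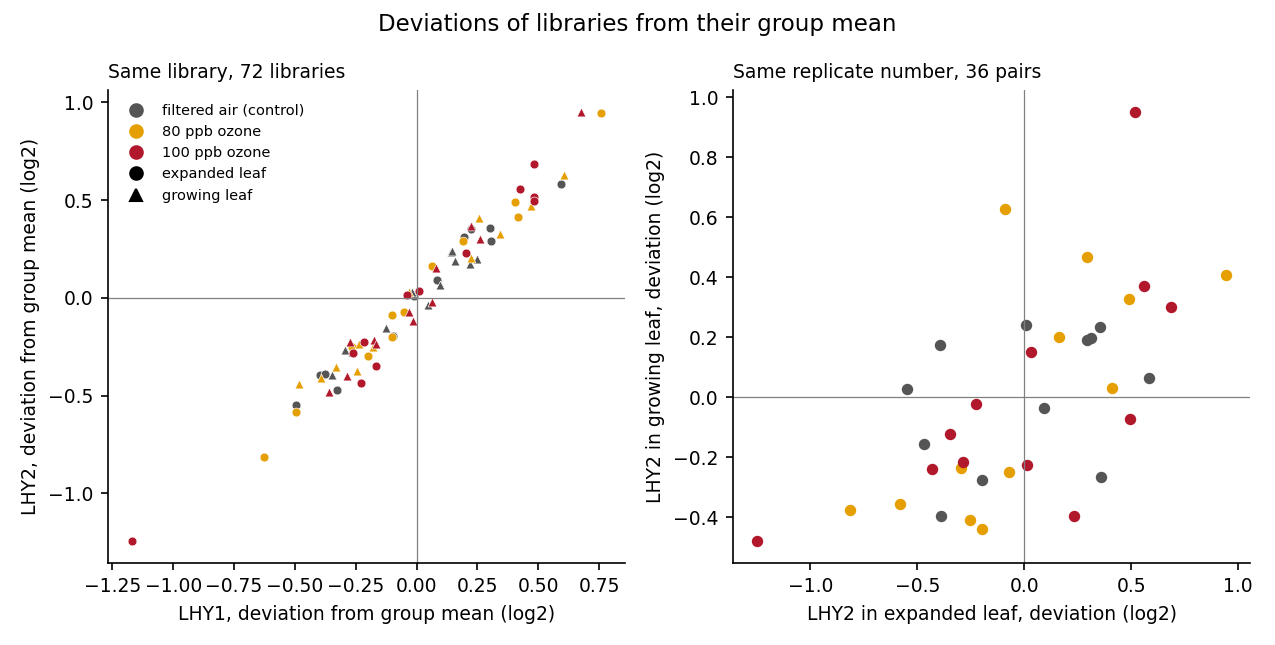
Left, deviation of each of the 72 libraries from its group mean for LHY1 (horizontal) and LHY2 (vertical), log2 scale, with air in colour and leaf position by symbol. Right, deviation of LHY2 in the expanded leaf (horizontal) and in the growing leaf (vertical) of the same replicate number, air and day, 36 pairs. The left points lie close to a line (r = 0.983) and the right points are looser (r = 0.619).

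The genes whose pattern was most like that of each copy were sought among 20641 tested genes with a mean of at least 100 normalised read counts. They are given by identifier, since the files do not pair them with names, and the correlations are descriptions over values from shared libraries. Over the 18 group means, Potri.011G126800 (r = 0.871) and Potri.003G200600 (0.87) were most like LHY1, and 2 genes, Potri.T126906 (0.887) and Potri.012G038300 (0.857), were most like LHY2. Each copy thus had 2 genes closer to it than its own duplicate at 0.851. Most opposite were Potri.001G243600 (-0.863) and Potri.014G029000 (-0.843) for LHY1, and Potri.001G104500 (-0.857) and Potri.011G105400 (-0.797) for LHY2. Potri.014G029000 and Potri.001G243600 had their highest mean in the expanded controls of day 2, at 2395 and 266.3 normalised read counts, and their lowest in growing leaves at 100 ppb on day 2, at 595.8 and 65.9. These are the groups where LHY1 was lowest and highest, which is tied to the choice of these genes by their low r with LHY1.

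Over the deviations of the 72 libraries no gene came closer to either copy than the other copy did. Potri.016G083900 followed at r = 0.909 with LHY1 and 0.929 with LHY2, and Potri.001G205800 at 0.896 and 0.914. On the opposite side stood Potri.001G243600 for both copies (-0.836 and -0.85), then Potri.010G082000 for LHY1 (-0.8) and Potri.002G223700 for LHY2 (-0.792). An r of at least 0.8 was reached by 22 genes with LHY1 and by 26 with LHY2, of which 20 were shared, or 90.9% of the first list and 76.9% of the second. The median absolute r over all 20641 genes was 0.206 with LHY1 and 0.212 with LHY2. The first principal component of all genes' deviations, with 18.4% of their variance, had r = 0.412 with LHY1 and 0.442 with LHY2, and the third, with 6.3%, had 0.428 and 0.45.

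**Figure D5:**
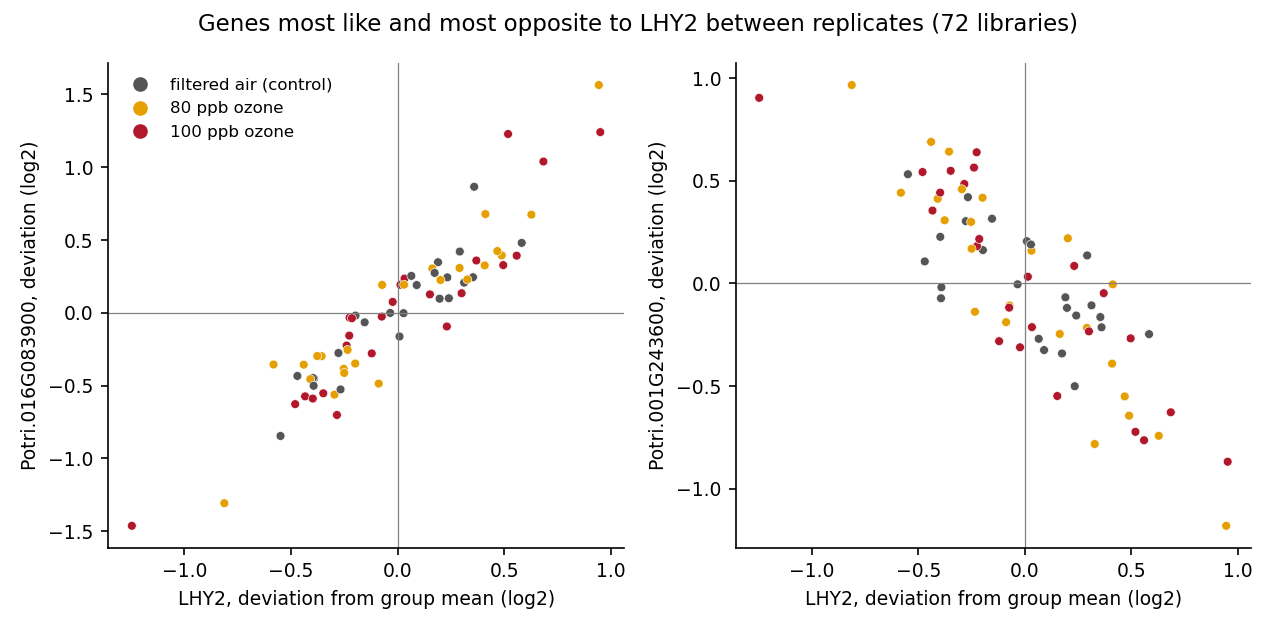
Deviation of each of the 72 libraries from its group mean (log2 scale) for LHY2 (horizontal) against Potri.016G083900 (left) and Potri.001G243600 (right), with the air in colour. Potri.016G083900 follows LHY2 upwards (r = 0.929) and Potri.001G243600 runs the opposite way (r = -0.85).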

How the data were processed

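Poly(A)-selected RNA was sequenced on paired-end stranded libraries, per the labels' protocols. The submitters' processing notes name TopHat2 2.12, featureCounts, Subread 1.6.1 and DESeq2 1.24.0. For the genome build the sources used here give none. The authors deposited 1 table of normalised counts (a signal without length correction, listed for 34699 genes). Each library's values were whole multiples of 1 step within a tolerance of 0.01 (100% of values), so whole reads were recovered. The planned test for signal values was kept: limma 3.58.1 in R 4.3.3 on log2(value + 1), with an eBayes trend, a mean per group, all 72 libraries (54 residual degrees of freedom) and no replicate block. Fold changes are on that scale. Genes were kept where 4 or more libraries had a value of 10 or above (27780; 1923 listed genes had no read), and two-sided p-values were adjusted by Benjamini-Hochberg over them in each contrast. Calls were made at an adjusted p under 0.05. The fitting code was tested on simulated data. edgeR 4.0.16 and DESeq2 1.42.0 on the recovered reads, other pseudocounts, filters, scalings and blocks, and leaving out each library were tried as alternatives. Ratios were tested by exact permutation. Like genes were the 2 highest and 2 lowest in Pearson r for each copy, with a mean of at least 100. The genes and tests were chosen with earlier results of these data known. The planned lists of other clock genes and leaf markers could not be applied, since no table pairs the identifiers with names, so the leaf label was not checked against markers.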

Additional observations from a re-analysis of the deposited data

Results flagged for a closer look

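The difference of LHY1 between growing and expanded control leaves changed with the day, and each change passed a test of the difference itself. Both tests used the same day 8 libraries with opposite sign, so they are not separate results. The log2 difference was 0.65 on day 2, -0.43 on day 8 and 0.67 on day 13. The log2 difference, growing minus expanded, moved by -1.08 from day 2 to day 8 (limma adjusted p = 0.0216) and by 1.10 from day 8 to day 13 (limma adjusted p = 0.0309). Expanded control leaves went from 3009 to 6408 and 3718 normalised read counts over the 3 days, and growing control leaves from 4728 to 4737 and 5687. Leaving out single libraries lost the first call in 3 of 16 cases and the second in 6 of 16. LHY2 moved by -0.42 and 1.08 over the same days and was not called (limma adjusted p = 0.489 and 0.0751), although its second change passed in 2 of 16 omissions (0.0433 and 0.0487) and with the compared libraries alone (0.0296). In controls the log2 ratio of LHY1 to LHY2, growing minus expanded, was 0.64 on day 2, -0.02 on day 8 and 0.00 on day 13. The change of this ratio difference between days was not tested. Of all tested genes, 36.6% and 22.1% were called in these contrasts, which were added after the data were seen.

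Replicate 2 of the expanded leaves at 100 ppb on day 13 lay far below the other 3 libraries of its group on the log2 scale. Its gap to the nearest library was 0.832 of the group's range for LHY1 and 0.837 for LHY2, above Dixon's 95% critical value for 4 libraries. Without it the 100 ppb change in those leaves was 0.45 for LHY1 and 0.34 for LHY2, neither called, against 0.06 and -0.08 with it. These were the only sets past that value among 36 on the log2 scale, chosen after the data were seen, 36 of normalised read counts and 18 of the ratio, and chance alone passes about 1 set in 20.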

How the results depend on the processing

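Beside leaving out libraries, 11 or 12 alternatives were run for each contrast of LHY1 and LHY2 and 1, a pseudocount of 8, for the ratio tests. Those not named here kept both the direction and the side of the threshold. LHY2 between control positions on day 2, at 0.01, turned to -0.0029 with TMM scaling, -0.027 with edgeR and -0.013 with DESeq2. The LHY2 difference of the 100 ppb change between positions on day 2, at -0.02, turned to 0.0065 with TMM and 0.0086 with edgeR. Scaling every library to the same total moved the median of all genes by over 0.1 in several contrasts, to -0.324 and -0.259 between control positions on days 8 and 13 and to 0.27 and 0.376 in expanded controls from day 2 to days 8 and 13. With it LHY1 and LHY2 between positions on day 8 passed the threshold at -0.74 (limma adjusted p = 0.0136) and -0.72 (0.0397), and LHY1 in expanded controls from day 2 to 13 passed at 0.60 (0.0435). It also turned LHY1 in expanded leaves on day 13 to -0.0023 at 100 ppb against control and -0.10 against 80 ppb, 100 against 80 ppb in expanded leaves on day 2 to 0.050 for LHY1 and 0.067 for LHY2, and LHY1 in growing controls from day 2 to 8 to -0.14. With the compared libraries alone, LHY1 between positions on day 8 (-0.43, limma adjusted p = 0.0395), LHY2 in growing controls from day 2 to 8 (0.59, 0.0173) and the LHY2 change of position difference from day 8 to 13 (1.08, 0.0296) passed. Beyond these shifts the cause was not tested. The planned replicate block, by number within a position and day, was fitted for ozone contrasts only and changed no call. By the check across all genes, r of same-numbered deviations was over 0.1 in every pair in 1 set, growing against expanded at 100 ppb on day 8. No contrast of controls met this cut-off. Missing it does not show that the numbers are unrelated. Samples correlated best with their own number in 0 to 3 of 4 cases. A replicate block shared by leaf positions, added later, moved the day 13 differences of LHY1 (0.67, limma adjusted p = 0.00806) and LHY2 (0.67, 0.0129) past the threshold. It did so too for the LHY2 change of position difference from day 8 to 13 (1.08, 0.00605), and it and a block shared by days changed no other call.

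With each library left out in turn, the called LHY1 results ran from 0.55 to 0.74 on the log2 scale between control positions on day 2, from 0.98 to 1.21 in expanded controls from day 2 to 8, from -1.21 to -0.97 and from 0.94 to 1.30 for the changes of position difference, and from 0.28 to 0.39 for the added mean at 100 ppb. LHY2 in controls ran from 0.85 to 1.14 for expanded leaves from day 2 to 8, and from 0.73 to 0.91 for growing leaves from day 2 to 13. Near the threshold, expanded controls from day 8 to 13 ran from -1.03 to -0.67 for LHY1 and -1.04 to -0.66 for LHY2, and control positions on day 13 from 0.51 to 0.87 and from 0.49 to 0.87, where 1 omission each gave a call. The LHY2 change of position difference from day 8 to 13 ran from 0.90 to 1.27, and 2 omissions gave a call. The added mean over positions and days at 100 ppb ran from 0.28 to 0.41 for LHY2. Changes that were not called and turned sign were, at 100 ppb for LHY1, -0.10 to 0.45 (expanded, day 13), -0.11 to 0.15 (expanded, day 8) and -0.021 to 0.32 (growing, day 13), and for LHY2 -0.26 to 0.34, -0.16 to 0.21 and -0.23 to 0.25 in the same order. At 80 ppb they were -0.23 to 0.23 (expanded, day 13) and -0.024 to 0.16 (growing, day 13) for LHY1, and -0.28 to 0.31, -0.068 to 0.19 and, for expanded leaves on day 8, -0.22 to 0.016 for LHY2. For 100 against 80 ppb in expanded leaves on days 2, 8 and 13 and growing leaves on day 13 they were -0.20 to 0.099, -0.0018 to 0.30, -0.17 to 0.43 and -0.095 to 0.25 for LHY1, and -0.21 to 0.14, -0.083 to 0.29, -0.39 to 0.30 and -0.30 to 0.18 for LHY2. The difference of the 100 ppb change between positions ran from -0.18 to 0.054 (day 2) and -0.25 to 0.31 (day 13) for LHY1 and from -0.14 to 0.17 and -0.25 to 0.35 for LHY2. In controls, LHY1 in growing leaves from day 2 to 8 ran from -0.085 to 0.12, LHY2 between positions on day 2 from -0.15 to 0.13 and LHY2 in expanded leaves from day 2 to 13 from -0.029 to 0.35. The log2 ratio turned sign at 100 ppb in expanded leaves on day 8 (-0.079 to 0.057), at 80 ppb in expanded and growing leaves on day 13 (-0.080 to 0.043 and -0.038 to 0.057) and between control positions on days 8 and 13 (-0.046 to 0.013 and -0.017 to 0.020).

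The number of all genes called moved by over 1.5 times under at least 1 alternative in 24 of 36 contrasts, most often with the compared libraries alone (20) and with DESeq2 (15). In expanded leaves at 100 ppb on day 2 it went from 2316 to 0 with the compared libraries alone, and for control positions on day 13 from 6938 to 1874, or to 11799 with equal totals. The counting error of these genes was at most 2.24%, beside a residual SD between replicates of 0.394 and 0.463 on the log2 scale. Whether depth affected their values in another way was not tested.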
